A study of Mus musculus with 2 samples.

Results

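The genes described here are 10 of the 25909 genes in a single-cell RNA-seq count matrix of mouse liver innate immune cells. They are 7 genes of the circadian clock (Per1, Per2, Per3, Dbp, Nr1d1, Nr1d2 and Arntl) and 3 genes that glucocorticoid hormones induce (Fkbp5, Tsc22d3 and Zbtb16). They were selected on their counts in these same cells, with earlier results known, in order to ask whether clock output and glucocorticoid targets shift together between the mice. What follows is therefore a description and carries no test. The cells came from 4 mice, 1 per group. An Egr2fl/fl mouse and a Lyz2Cre/+.Egr2fl/fl mouse were fed normal diet (ND). A further mouse of each genotype received for 7 weeks CDA-HFD, a high-fat diet that lacks choline and has a defined amino acid content, as a model of steatohepatitis. The methods give male mice that were 6 to 12 weeks old when CDA-HFD was started, and do not give the age of each mouse. All 4 mice carried the floxed Egr2 allele on both chromosomes, so that the Egr2fl/fl mice are the controls. In the Lyz2Cre/+.Egr2fl/fl mice, called Egr2-deficient below, Cre is made from the Lyz2 locus, which is active in monocytes, macrophages and neutrophils. CD45.2+ CD11b+ cells negative for CD90.2, B220, NK1.1 and SiglecF were sorted from each liver and given a hashtag, a DNA barcode on a streptavidin that binds the CD45.2 antibody. They were then pooled, captured on the BD Rhapsody system and amplified by TAS-Seq. The time of day at which each liver was taken is not given in the sources used here, and with 1 mouse per group it cannot be told apart from diet or genotype.

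In the clock of mammalian cells, the transcription factor Arntl (Bmal1) binds E-box sequences with its partner Clock and switches on Per and Cry genes, whose proteins then block Arntl and Clock. Dbp, Nr1d1 and Nr1d2 (Rev-erb alpha and beta) are further direct targets. Dbp acts on D-box sequences, while Nr1d1 and Nr1d2 repress Arntl through RORE sequences. Glucocorticoids, whose level in blood follows the time of day and stress, act through the receptor Nr3c1. That receptor induces Fkbp5, a co-chaperone that dampens the receptor itself, Tsc22d3 (Gilz), an anti-inflammatory leucine zipper protein, and Zbtb16, a zinc finger repressor. Per1 belongs to both systems, since it is a clock gene and also a direct target of the glucocorticoid receptor.

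The promoters show which of these sequences lie next to the start of each gene. A window of 300 bases, with 250 before the annotated start and 50 from it, was taken from RefSeq (GRCm38.p6) for 8 of the 10 genes. Per2 and Zbtb16 were not in the promoter table. Both strands were searched for the E-box CACGTG, held by 7.15% of 32851 promoters of the same length, and for the E-box-like CACGTT (4.68%). The search also covered the D-box TTATGTAA (0.938%), the RORE core AGGTCA (16.3%), the core AGAACA of the glucocorticoid response element (19.0%) and the full element, which is this core, 3 bases of any kind and its reverse complement (0.00913%). The E-box reads the same on both strands, and every full element also counts as a core. Per1, Per3, Nr1d2 and Fkbp5 are shown, chosen after the search, since they hold the E-box, D-box and RORE core matches and Per1, Nr1d2 and Fkbp5 are genes that the comparisons turn on. Matches are in capitals, 5′ to 3′ on the strand of the gene, and TGACCT is the RORE core on the other strand.
Per1, chr11:69098699-69098998, plus strand, first of 2 starts: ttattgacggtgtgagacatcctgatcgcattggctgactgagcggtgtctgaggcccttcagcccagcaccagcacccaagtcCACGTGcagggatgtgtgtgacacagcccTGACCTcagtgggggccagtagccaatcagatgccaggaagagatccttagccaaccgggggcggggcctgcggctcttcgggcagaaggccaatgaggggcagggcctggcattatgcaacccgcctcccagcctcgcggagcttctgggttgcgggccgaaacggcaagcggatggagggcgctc
Per3, chr4:151044616-151044915, minus strand: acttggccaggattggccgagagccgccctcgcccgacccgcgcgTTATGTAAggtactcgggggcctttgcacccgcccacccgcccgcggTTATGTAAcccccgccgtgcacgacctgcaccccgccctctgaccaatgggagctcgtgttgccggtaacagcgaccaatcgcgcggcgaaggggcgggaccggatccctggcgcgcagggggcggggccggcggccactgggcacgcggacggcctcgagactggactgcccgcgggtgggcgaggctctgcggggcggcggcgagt
Nr1d2, chr14:18239057-18239356, minus strand: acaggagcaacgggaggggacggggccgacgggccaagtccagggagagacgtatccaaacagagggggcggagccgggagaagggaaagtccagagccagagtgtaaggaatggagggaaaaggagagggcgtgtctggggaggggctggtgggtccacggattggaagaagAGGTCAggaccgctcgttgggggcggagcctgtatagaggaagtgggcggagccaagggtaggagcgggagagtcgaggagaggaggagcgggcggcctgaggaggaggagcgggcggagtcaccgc
Fkbp5, chr17:28486100-28486399, minus strand: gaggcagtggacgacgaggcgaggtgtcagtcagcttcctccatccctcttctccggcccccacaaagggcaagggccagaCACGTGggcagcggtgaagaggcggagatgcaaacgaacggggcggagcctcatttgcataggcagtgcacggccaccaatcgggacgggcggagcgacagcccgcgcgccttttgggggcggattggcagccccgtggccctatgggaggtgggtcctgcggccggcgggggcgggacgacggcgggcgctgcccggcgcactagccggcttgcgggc

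The first start of Per1 had an E-box whose first base lay at position -166 from the start and a RORE core at -137. Per3 had D-boxes at -205 and -158. Nr1d2 had a RORE core at -77, and Fkbp5 an E-box at -169. Among the windows not shown, Nr1d1 had an E-box-like match at -28, the second start of Arntl a RORE core at 32, and the third of 3 Tsc22d3 starts the core of the glucocorticoid element at -185. The window of Dbp, the second of Per1, the first of Arntl and the other 2 of Tsc22d3 held none of these letters. No window held the full glucocorticoid response element. A match is only a run of letters in this window and not a bound site.

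After removal of barcodes with over 25% mitochondrial counts, 15384 cells were left. They were 1723 and 1590 cells of the ND-fed Egr2fl/fl and Egr2-deficient mouse and 5885 and 6186 cells of the CDA-HFD-fed mice, with median totals of 13168 to 16459 counts per cell. The sources do not state if counts stand for reads or for unique molecules. Egr2 was at 13.3 and 5.85 CPM (counts scaled to a total of 1000000) in the ND-fed and 49.4 and 18.2 CPM in the CDA-HFD-fed Egr2fl/fl and Egr2-deficient mouse, lower in the Egr2-deficient mouse on both diets. Clusters were named from cell type markers, and the 10 genes were left out of the clustering. Kupffer cell-like cells were 44.3% and 52.2% of the cells of the ND-fed mice and 4 and 15 cells of the CDA-HFD-fed mice, so a level over all cells of a mouse compares different cells. For this reason levels are given within a cell class, as CPM of the counts summed over its cells, for classes with at least 50 cells of the mouse. Ratios carry 95% intervals that cover counting error only, not differences between mice. Because 1 positive cell often held several counts, these intervals are too narrow where few cells hold the counts. Clusters 1 (led by Thbs1, Apoc2 and Ccr2), 4 (led by Tmem119, Olfml3 and Pf4) and 10 (led by Malat1 and mitochondrial transcripts, with few counts per cell) were not named. On ND the neutrophil-like class was mostly cluster 8 and the Ly6Chi monocyte-like class mostly cluster 5, whereas on CDA-HFD clusters 6 and 8, and 5 and 7, made up most of them. The cells of clusters 6 and 8 had medians of 0.299 and 0.288 times the median counts of their mouse. The other cells that passed the gate included 73 B or plasma cell-like and 135 endothelial cell-like cells.

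How firmly each gene could be measured differed widely. Tsc22d3 had 52599 counts, Per1 17517 and Fkbp5 7338, and they had a count in 66.6%, 41.7% and 21.0% of the cells. Nr1d2 had 1590 counts, Arntl 1447, Zbtb16 1151 and Dbp 1059, in 2.80% to 5.0% of the cells. Nr1d1 (338 counts), Per2 (262) and Per3 (247) had a count in about 1 of 100 cells, and most of their differences were not detectable at this depth. These counts are not per length and do not rank the genes by level. No cell class is known to lack the clock genes, so that a background from free RNA could not be set for them. For Zbtb16 the Kupffer cell-like cells of the ND-fed mice gave a count in 0 of 763 cells, which allows a share of cells with a count of up to 0.393%, and in 2 of 830 cells. Limits of this kind hold for detection at this depth and not for the share of cells that express a gene.

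The clock genes differed in where they were seen. Arntl was at 12.7 and 13.1 CPM in Kupffer cell-like cells of the ND-fed mice, from 114 and 109 cells, and at 12.7 and 16.4 CPM in Ccr7+ dendritic cell-like cells of the CDA-HFD-fed mice. Higher levels, in cluster 4 of the ND-fed and in interferon-responding cell-like cells of the CDA-HFD-fed Egr2-deficient mouse, rested on 21 counts each, from 7 and 4 cells, and 20.9 CPM in endothelial cell-like cells of the latter on 14 counts from 2 cells. In neutrophil-like cells Arntl had 0, 1, 2 and 4 counts in the 4 mice, at most 1.15 CPM. Among classes of this size Per2 was seen mainly in the Kupffer cell-like class, at 2.70 and 4.78 CPM, and in neutrophil-like cells. There it had no count in the ND-fed Egr2fl/fl mouse, 18 counts from 5 cells in the ND-fed Egr2-deficient mouse, and was at 7.68 and 6.09 CPM on CDA-HFD. In Ly6Chi monocyte-like cells no Per2 count was found in any mouse, and 0 of 1092 cells of the CDA-HFD-fed Egr2fl/fl mouse allows a share of cells with a count of up to 0.275%. Nr1d1 was at 3.23 and 3.78 CPM in cluster 4 of the CDA-HFD-fed mice and at no more than 1.73 CPM in their Ly6Chi monocyte-like, monocyte-derived macrophage-like and cluster 1 cells. Higher levels rested on few cells, as in proliferating cell-like cells of the CDA-HFD-fed Egr2-deficient mouse (4.67 CPM, 17 counts in 6 cells) and Cd209a+ dendritic cell-like cells of the ND-fed Egr2-deficient mouse (12 counts in 2 cells).

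Per1 had its highest level in neutrophil-like cells of every mouse. It was at 132 and 69.2 CPM there on ND and reached 348 and 272 CPM with CDA-HFD. In the other classes with enough cells on ND it lay between 18.4 and 53.7 CPM, and on CDA-HFD between 51.0 and 174 CPM. In the ND-fed Egr2-deficient mouse the counting intervals of neutrophil-like cells, Cd209a+ dendritic cell-like cells (53.7 CPM) and cluster 4 (48.5 CPM) overlapped.

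Among the glucocorticoid-induced genes, Tsc22d3 was present in every class, from 94.3 CPM in interferon-responding cell-like cells to 985 CPM in neutrophil-like cells of the ND-fed Egr2fl/fl mouse. Zbtb16 was highest in Ly6Clo monocyte-like cells, with 40.3, 28.8, 37.1 and 61.7 CPM in the ND-fed Egr2fl/fl, ND-fed Egr2-deficient, CDA-HFD-fed Egr2fl/fl and CDA-HFD-fed Egr2-deficient mouse. Neutrophil-like cells had 14.4, 26.5, 9.17 and 11.3 CPM and Ly6Chi monocyte-like cells 15.6, 6.90, 5.72 and 8.30 CPM. In the ND-fed Egr2-deficient mouse the interval of the neutrophil-like cells overlapped that of the Ly6Clo monocyte-like cells, and in the ND-fed Egr2fl/fl mouse and the CDA-HFD-fed Egr2-deficient mouse those of neutrophil-like and Ly6Chi monocyte-like cells overlapped. Fkbp5 was at 30.3 and 41.5 CPM in Kupffer cell-like cells of the ND-fed mice, and on CDA-HFD it was highest in neutrophil-like cells of both mice, at 56.5 and 89.9 CPM.

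**Figure D1:**
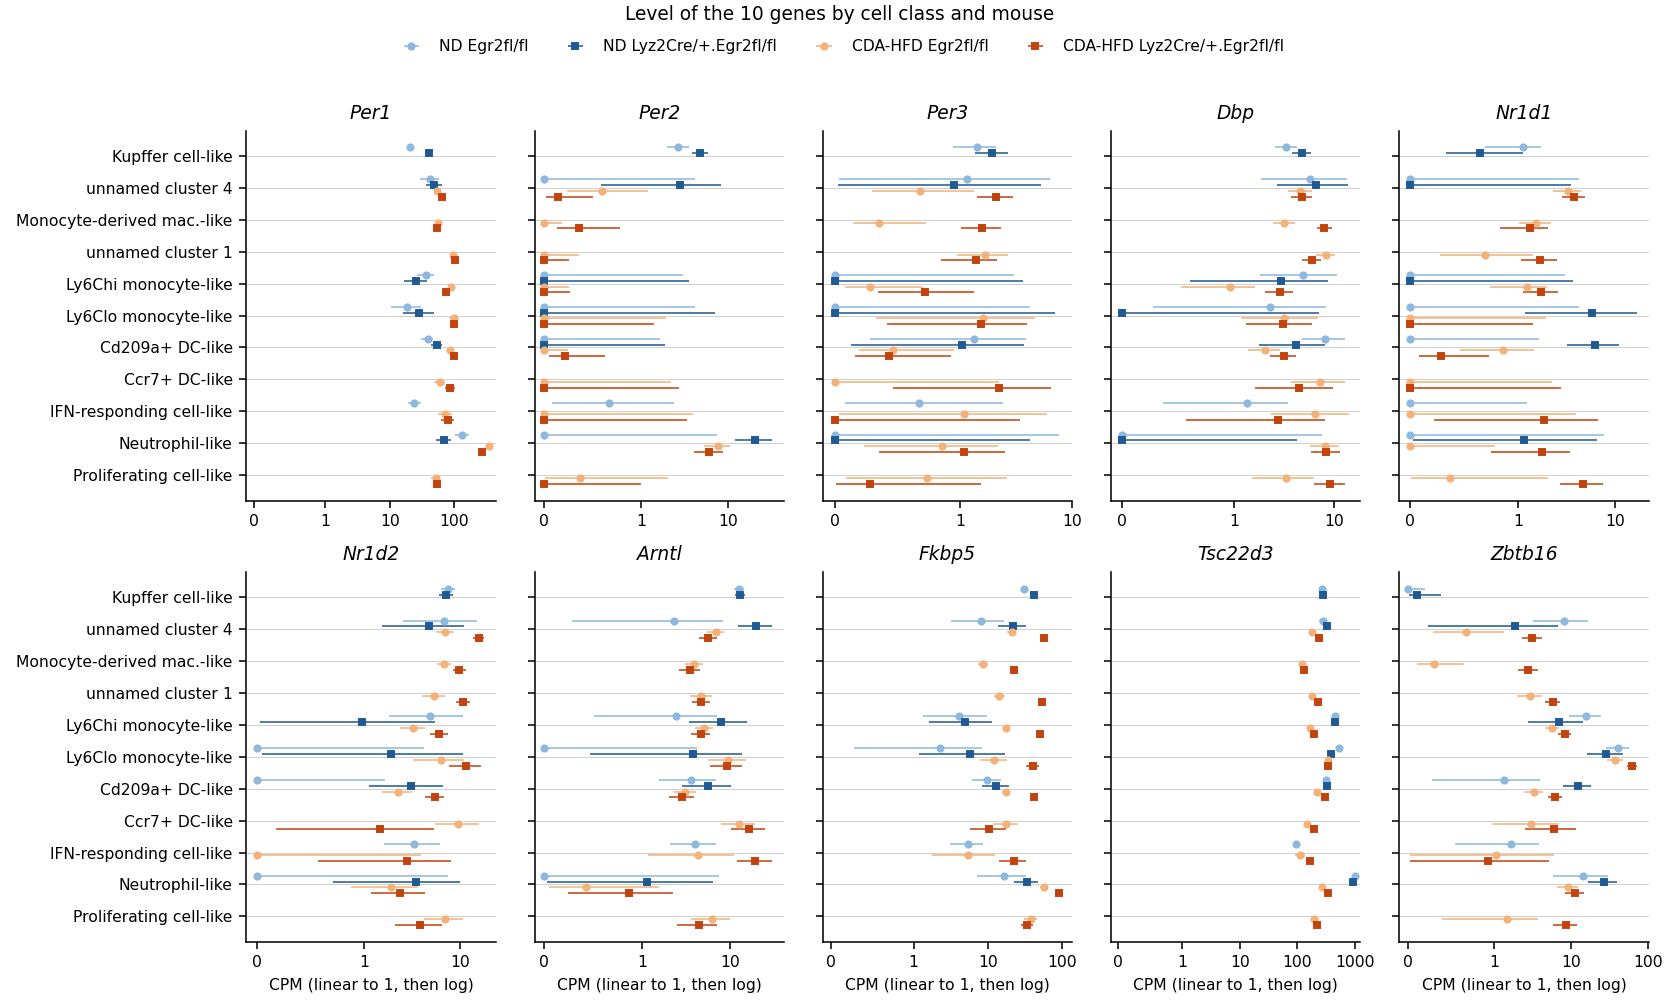
Level of the 10 genes in CPM (linear up to 1, then a log scale) for 11 cell classes, shown where the mouse had at least 50 cells, with 1 symbol per mouse and bars for the exact 95% counting interval. Zbtb16 is highest in Ly6Clo monocyte-like cells at 28.8 to 61.7 CPM, Per1 in neutrophil-like cells, and the CDA-HFD-fed Egr2-deficient mouse (dark orange squares) lies above the CDA-HFD-fed Egr2fl/fl mouse for Fkbp5 in most classes.

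The genes whose pattern over the 16 sums of 4 classes and 4 mice was most like that of a member were searched among 6753 genes, on log2 CPM centred on the mean of each class, for 3 glucocorticoid-induced and 3 clock genes. Fkbp5 was most like Lpl (Pearson's r = 0.91), St3gal5 (0.91) and Apoc2 (0.90). Among those most like Tsc22d3 were Myadm (0.97) and Mia2 (0.95). For Zbtb16 they were Sqor (0.85), Gm49721 (0.84) and Oas3 (0.83), and for Dbp Brms1 (0.95), Pcnt (0.87) and Gm10053 (0.86). Nr1d1 and Per2, whose 16 sums held only 83 and 85 counts, were most like Ndufa12 (0.83), Man2a1 (0.81) and D5Ertd579e (0.78), and like Fam89b (0.90), Pygo2 (0.87) and Naaa (0.86). The sums share mice and libraries, and these values are a description of the 16 sums.

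Between the genotypes on CDA-HFD, Fkbp5 was higher in the Egr2-deficient mouse in most cell classes. In Ly6Chi monocyte-like cells Fkbp5 was at 17.6 CPM in the Egr2fl/fl and 50.1 CPM in the Egr2-deficient mouse, a ratio of 2.85 (2.46 to 3.30), with a count in 126 of 1092 and 291 of 1003 cells. Monocyte-derived macrophage-like cells had 8.63 and 22.5 CPM (ratio 2.61, 2.17 to 3.15), and Ly6Clo monocyte-like cells 12.2 and 40.3 CPM (3.30, 2.09 to 5.43). In Cd209a+ dendritic cell-like cells it was at 17.5 and 42.1 CPM (2.41, 2.08 to 2.80). The same direction was thus seen in both monocyte-like classes, in the macrophage-like class and in 1 of the dendritic cell-like classes. The unnamed clusters 1 and 4 had 14.3 and 53.4 CPM (3.74, 3.13 to 4.50) and 20.9 and 57.8 CPM (2.77, 2.40 to 3.2). Interferon-responding cell-like cells had 5 and 24 counts (4.14, 1.55 to 13.9). The ratio was smaller in neutrophil-like cells, at 56.5 and 89.9 CPM (1.59, 1.36 to 1.86; in cluster 8 alone 2.37, 1.76 to 3.22), and in cluster 10 (1.72, 0.908 to 3.35).

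The Ccr7+ dendritic cell-like and proliferating cell-like classes were the exceptions. Fkbp5 was at 17.5 and 10.4 CPM in the former, from 29 and 14 counts (0.594, 0.290 to 1.16), and at 37.8 and 34.1 CPM in the latter (0.902, 0.689 to 1.18). Of the 11 classes with at least 50 cells in both mice, 9 had a ratio above 1 and in 8 the whole interval lay above 1. The difference was also one of the share of cells. After each cell was thinned to 3000 counts, Fkbp5 had a count in 3.35% of the cells of cluster 1 in the Egr2fl/fl and 12.3% in the Egr2-deficient mouse (9.79% and 29.5% before thinning).

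Tsc22d3 was higher in the CDA-HFD-fed Egr2-deficient mouse in all 11 classes, by at most 1.46-fold. It was at 168 and 192 CPM in Ly6Chi monocyte-like cells (1.15, 1.08 to 1.21; in cluster 5 alone 1.06, 0.998 to 1.13), at 215 and 299 CPM in Cd209a+ dendritic cell-like cells (1.39, 1.32 to 1.45) and at 265 and 334 CPM in neutrophil-like cells (1.26, 1.17 to 1.36; in cluster 8 alone 1.39, 1.23 to 1.56). The lowest of the 11 ratios was 1.01, and 9 intervals lay above 1. Zbtb16 was likewise higher in each of the 9 classes with enough counts, with ratios of 1.23 to 9.18 and 7 intervals above 1. The lowest was that of neutrophil-like cells (1.23, 0.808 to 1.89), and in cluster 8 alone the ratio was 0.857 (0.430 to 1.68). It was at 37.1 and 61.7 CPM in Ly6Clo monocyte-like cells (1.66, 1.25 to 2.23). Monocyte-derived macrophage-like cells had the highest ratio, from 6 counts in 3 of 829 cells and 46 counts in 26 of 789 cells.

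In the same comparison the clock genes differed from gene to gene. Nr1d2 was higher in the Egr2-deficient mouse in 8 of 10 classes, and 6 intervals lay above 1. It was at 3.24 and 6.06 CPM in Ly6Chi monocyte-like cells (1.87, 1.29 to 2.73), 2.25 and 5.48 CPM in Cd209a+ dendritic cell-like cells (2.44, 1.61 to 3.77) and 7.05 and 15.7 CPM in cluster 4 (2.23, 1.73 to 2.91). As for Fkbp5, the Ccr7+ dendritic cell-like class had the opposite direction, with 16 and 2 counts (0.154, 0.0172 to 0.654), and so did proliferating cell-like cells, with 19 and 14 counts (0.552, 0.256 to 1.16).

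Per1, the member with both a clock and a glucocorticoid role, differed little. It was at 87.5 and 73.6 CPM in Ly6Chi monocyte-like cells (0.841, 0.774 to 0.914), 55.1 and 54.3 CPM in monocyte-derived macrophage-like cells (0.985, 0.900 to 1.08) and 85.7 and 99.3 CPM in Cd209a+ dendritic cell-like cells (1.16, 1.07 to 1.25). Of its 11 ratios 7 were above 1 and 4 below, with 3 intervals on each side, and the whole range was 0.495 to 1.44. Dbp had 6 ratios above and 5 below 1. It was at 3.18 and 7.98 CPM in monocyte-derived macrophage-like cells (2.51, 1.84 to 3.44), with a count in 25 of 829 and 42 of 789 cells, but at 8.27 and 5.99 CPM in cluster 1 (0.724, 0.529 to 0.989). Arntl had 4 ratios above and 7 below 1, and 10 of its 11 intervals included 1. The exception was the interferon-responding cell-like class, with 4 and 21 counts (4.52, 1.53 to 18.1), the latter from 4 cells.

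The sparse clock genes gave few ratios. Per3 had 7 and 26 counts in monocyte-derived macrophage-like cells (4.45, 1.88 to 12.1), from 7 and 13 cells, and 8 and 30 counts in cluster 4 (3.09, 1.38 to 7.79), while its other 5 intervals included 1. Nr1d1 had 1 and 17 counts in proliferating cell-like cells, from 1 and 6 cells (12.7, 1.99 to 532), and 7 and 24 counts in cluster 1 (2.42, 1.01 to 6.66). Of its 6 ratios 4 were above 1 and 2 below. The lowest was 0.331 (0.0787 to 1.07) in Cd209a+ dendritic cell-like cells, from 13 and 4 counts. Per2 gave a ratio in neutrophil-like cells and in cluster 4 only, at 0.793 and 0.235, and both intervals included 1. In monocyte-derived macrophage-like cells it had 0 and 6 counts, the latter from 3 cells.

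**Figure D2:**
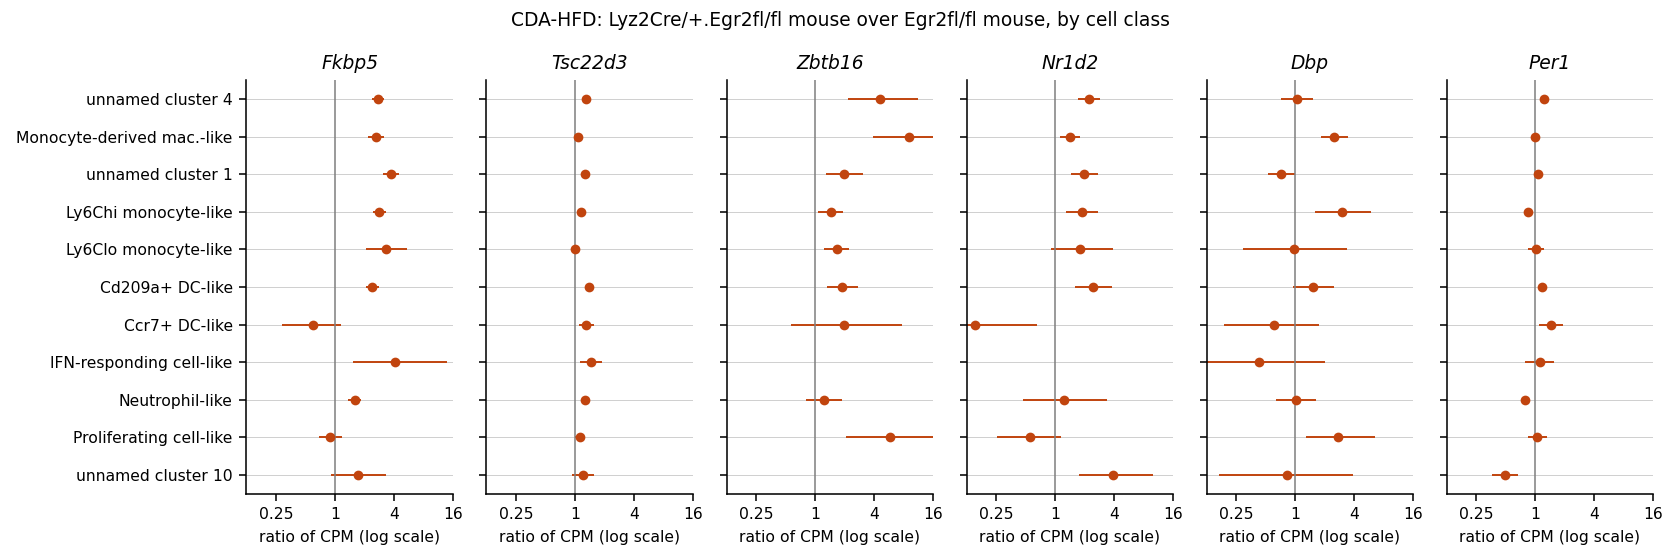
Ratio of CPM in the CDA-HFD-fed Lyz2Cre/+.Egr2fl/fl mouse over the CDA-HFD-fed Egr2fl/fl mouse (log scale) by cell class, with bars for the 95% counting interval cut at the axis limits and no point where both mice had at most 3 counts. Fkbp5 lies right of 1 in 9 of 11 classes and Tsc22d3 in 11 of 11, close to 1, whereas Per1 scatters on both sides of 1 from 0.495 to 1.44.

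To set the members beside all genes, the log2 ratios of Cd209a+ dendritic cell-like, Ly6Chi monocyte-like, Ly6Clo monocyte-like and neutrophil-like cells were averaged with equal weight, since these 4 named classes had at least 50 cells in each of the 4 mice. A count of 0.5 was added to every sum. Of the 10 members 7 reached the 100 counts over these sums that were asked of a gene, and Per2, Per3 and Nr1d1 did not. In the comparison of genotypes on CDA-HFD, 1 of these 7, Fkbp5, was past 2-fold higher and none lower, whereas 1.46% of 12734 genes were past 2-fold higher and 1.02% lower. Fkbp5 was at 2.44-fold (2.14 to 2.77), above 99.4% of the genes. With only classes of at least 100 cells it was just short of 2-fold, at 0.97 on the log2 scale instead of 1.29, and no member was past 2-fold. Nr1d2 was at 1.77-fold (1.31 to 2.39), above 97.2% of the genes, Zbtb16 at 1.54-fold (1.30 to 1.81), above 94.5%, and Dbp at 1.44-fold (1.03 to 2.01), above 92.2%. Tsc22d3, at 1.19-fold (1.15 to 1.24), lay above 78.6% of the genes, Arntl, at 1.10-fold (0.714 to 1.71), above 66.0%, and Per1, at 0.940-fold (0.887 to 0.996), above 28.4%. The median log2 ratio was 0.53 over the 7 members and 0.05 over all genes.

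Of 22 other glucocorticoid-induced genes 20 had enough counts and none was past 2-fold in either direction, with a median log2 ratio of -0.08. This list holds 2 genes, Cd163 and Il1r2, that also served as class markers. Of the 8 genes of the glucocorticoid receptor and its partners 7 had enough counts. None was past 2-fold higher and 1 was lower, Hsp90aa1, which encodes the chaperone that holds the receptor ready for hormone, at 701 and 323 CPM (0.460-fold). Nr3c1 itself, named here after its value was seen, was at 48.0 and 52.3 CPM (1.02-fold). Of 18 other clock genes 13 had enough counts, and 1 was past 2-fold, Tef, a D-box factor related to Dbp, at 2.10 and 6.35 CPM (2.66-fold, 1.89 to 3.74).

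Stress transcripts differed between the same mice. Of 7 heat shock genes 3 were past 2-fold lower in the CDA-HFD-fed Egr2-deficient mouse, with a median log2 ratio of -0.92 over the 7. Hspa1a was at 1125 and 333 CPM (0.279-fold), Hspa1b at 388 and 112 CPM (0.281-fold) and Hspb1 at 6.08 and 1.20 CPM (0.189-fold). By class Hspa1a ran from 205 to 2290 CPM in the Egr2fl/fl and from 99.6 to 518 CPM in the Egr2-deficient mouse. Of 10 immediate early genes, which include the class marker Nr4a1, none was past 2-fold, with a median log2 ratio of -0.27. In cells without any count of Hspa1a or Hspa1b, Fkbp5 was higher in the Egr2-deficient mouse in 7 of 7 classes with at least 50 such cells in each mouse, with ratios of 1.23 to 4.43 and 6 intervals above 1. In the same cells Tsc22d3 was higher in 6 of 7 classes, with ratios of 0.947 to 2.50. In Cd209a+ dendritic cell-like cells without these counts the ratio of Tsc22d3 was 2.50 (1.39 in all cells of the class) and that of Fkbp5 1.43 (2.41), and in Ly6Chi monocyte-like cells that of Tsc22d3 was 1.90 (1.15). The ratio of Zbtb16 was above 1 in 4 of 4 classes (2 with the interval), that of Nr1d2 in 6 of 6 (3), that of Dbp in 3 of 5 (2) and that of Per1 in 3 of 7 (1). Ly6Clo monocyte-like, interferon-responding, Ccr7+ dendritic and proliferating cell-like classes had too few such cells. The last 2 were those with an Fkbp5 ratio below 1 in all cells. Whether a cell has an Hspa1a or Hspa1b count also depends on its depth. It was found in 14.2% and 17.2% of neutrophil-like cells, which have few counts. The part of stress in these ratios was not tested.

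Between the diets, Per1 and Fkbp5 were both higher on CDA-HFD in each class and genotype that could be compared. In Ly6Chi monocyte-like cells Per1 was at 36.2 and 25.6 CPM in the ND-fed Egr2fl/fl and Egr2-deficient mouse, against 87.5 and 73.6 CPM with CDA-HFD, ratios of 2.42 (1.79 to 3.34) and 2.87 (1.95 to 4.42). In Ly6Clo monocyte-like cells it was at 18.4 and 28.8 CPM on ND and 97.1 and 99.3 CPM on CDA-HFD, and in neutrophil-like cells at 132 and 69.2 against 348 and 272 CPM. Both CDA-HFD-fed mice lay above both ND-fed mice in each of these classes. The ratios ran from 1.28 to 5.27 over 6 classes of the Egr2fl/fl mice, with the interval above 1 in 5, and from 1.34 to 3.94 over 5 classes of the Egr2-deficient mice, with every interval above 1. The lowest of both ranges was that of cluster 4.

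Fkbp5 in Ly6Chi monocyte-like cells had only 5 counts in each ND-fed mouse (4.11 and 4.93 CPM), against 17.6 and 50.1 CPM on CDA-HFD, ratios of 4.27 (1.81 to 13.3) and 10.2 (4.33 to 31.4). In neutrophil-like cells it was at 16.5 and 33.4 CPM on ND and 56.5 and 89.9 CPM on CDA-HFD, and in Cd209a+ dendritic cell-like cells at 9.82 and 12.9 against 17.5 and 42.1 CPM. The lowest ratio was 1.01 (0.288 to 2.87), in interferon-responding cell-like cells of the Egr2fl/fl mice. Summed over all cells, Fkbp5 was lower on CDA-HFD in the Egr2fl/fl mice, at 22.5 and 18 CPM, where the ND-fed mouse had its 763 Kupffer cell-like cells at 30.3 CPM and the CDA-HFD-fed mouse had 4.

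Tsc22d3 went the other way. In neutrophil-like cells it was at 985 and 926 CPM in the ND-fed and 265 and 334 CPM in the CDA-HFD-fed Egr2fl/fl and Egr2-deficient mouse, ratios of 0.269 (0.242 to 0.299) and 0.361 (0.332 to 0.394). In cluster 8 alone, which both diets had, the levels were 1122 and 1028 CPM against 327 and 453 CPM. Ly6Chi monocyte-like cells had 451 and 442 CPM on ND and 168 and 192 CPM on CDA-HFD (0.372 and 0.435), and cluster 5 alone 470 and 477 against 255 and 271 CPM. The ratio was below 1 in 5 of 6 classes of the Egr2fl/fl mice, each with its interval, and in 5 of 5 of the Egr2-deficient mice, 3 with their interval (the others were 0.921 and 0.876 in Cd209a+ dendritic cell-like and Ly6Clo monocyte-like cells). The exception was the interferon-responding cell-like class, at 94.3 and 112 CPM (1.19, 0.938 to 1.49). Thus in each of the 5 classes that both genotypes had, the ratios of Per1 and Fkbp5 were above 1 and that of Tsc22d3 was below 1. Zbtb16 had no common direction, with 1 of 6 ratios above 1 in the Egr2fl/fl and 3 of 5 in the Egr2-deficient mice.

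**Figure D3:**
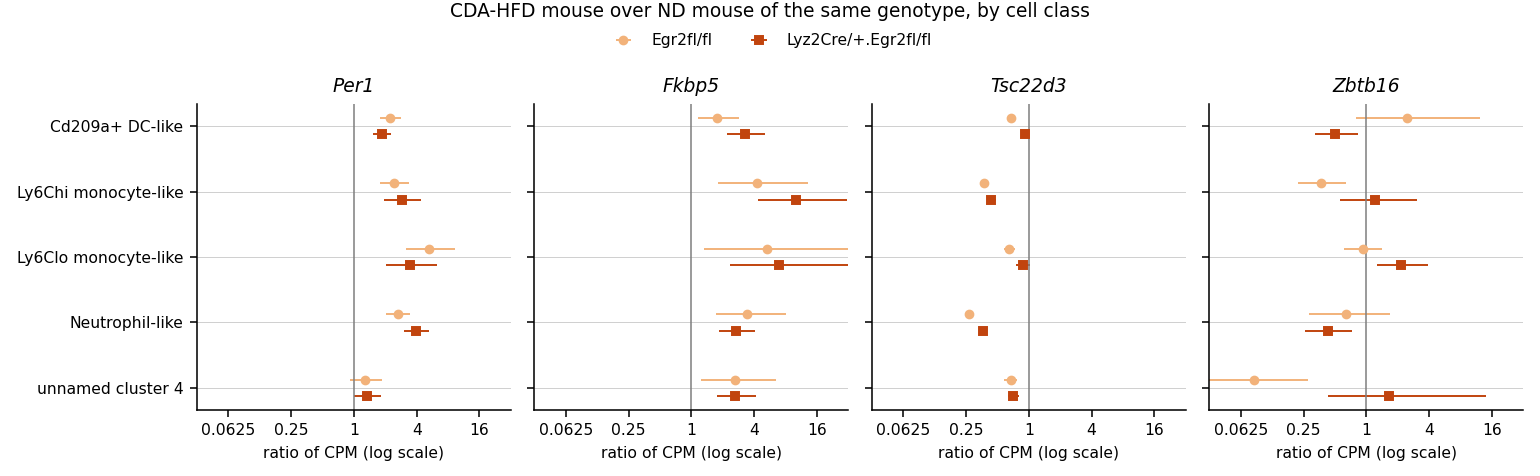
Ratio of CPM in the CDA-HFD-fed over the ND-fed mouse of the same genotype (log scale) for the 5 classes that both genotypes had, with bars for the 95% counting interval cut at the axis limits. Per1 and Fkbp5 lie right of 1 in every class, Tsc22d3 lies left of 1 in every class, and Zbtb16 lies on both sides.

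Averaged over the 4 classes, Per1 was 2.90-fold (2.46 to 3.44) higher on CDA-HFD in the Egr2fl/fl and 2.87-fold (2.40 to 3.43) in the Egr2-deficient mice, and Fkbp5 3.12-fold (2.01 to 4.83) and 4.66-fold (3.23 to 6.71). Tsc22d3 was at 0.459-fold (0.436 to 0.482) and 0.596-fold (0.564 to 0.630), and Zbtb16 at 0.806-fold (0.557 to 1.17) and 0.838-fold (0.633 to 1.11). The direction of Zbtb16 in the Egr2-deficient mice was not stable, with log2 ratios from -1.13 to 1.16 under other ways of processing. Over all cells, which differ in make-up between the diets, its ratio was 2.25 (1.80 to 2.84). In the Egr2fl/fl mice 3 of the 7 members were past 2-fold higher (Per1, Fkbp5 and Nr1d2) and 1 lower (Tsc22d3), beside 5.52% and 5.28% of all genes. Under other ways of processing the log2 ratio of Tsc22d3 ran from -1.25 to -0.61, so that it was not always past 2-fold. In the Egr2-deficient mice 4 were past 2-fold higher (Per1, Fkbp5, Dbp and Nr1d2) and none lower, beside 5.97% and 4.43%. Nr1d2 was at 3.45-fold (1.00 to 11.9) in the Egr2fl/fl and 2.03-fold (lower bound 1.03) in the Egr2-deficient mice, and Dbp at 2.34-fold (0.820 to 6.70) in the latter, and each of these 3 values turned to below 1 when 5 counts were added to every sum. Nr1d2 in the Egr2fl/fl mice had no ND count in 3 of the 4 classes and Dbp in the Egr2-deficient mice in 2, so that these averages depend on the 0.5 added. In the 2 classes where Nr1d2 had a ratio in the Egr2fl/fl mice it was 0.656 (0.280 to 1.88; Ly6Chi monocyte-like cells) and 1.02 (0.451 to 2.87; cluster 4). It was seen on CDA-HFD only in 3 further classes and on ND only in 1. In the Egr2-deficient mice 4 of 5 ratios of Nr1d2 were above 1, 2 with the interval, and they ran from 0.692 to 6.15. In the 3 classes where Dbp had a ratio in the Egr2-deficient mice it ran from 0.715 to 0.976, each with an interval that included 1. Nr1d2 had 6 counts over the 4 classes of the ND-fed Egr2fl/fl mouse, all from Ly6Chi monocyte-like cells, and Dbp 11 counts over those of the ND-fed Egr2-deficient mouse. Neutrophil-like cells had a Dbp count in 0 of 110 and 0 of 196 cells on ND, which allows shares of cells with a count of up to 2.73% and 1.53%, and in 1.36% and 1.48% of the cells on CDA-HFD. In cluster 8 alone Dbp had 1 and 3 counts on CDA-HFD, against 38 and 38 in the whole class. Arntl was at 1.90-fold (0.643 to 5.61) in the Egr2fl/fl and 0.742-fold (0.401 to 1.37) in the Egr2-deficient mice over the 4 classes, and in cluster 4 of the latter it had 21 counts on ND and 81 on CDA-HFD, a ratio of 0.284 (0.174 to 0.483). In neutrophil-like cells Per2 had no count and 36 counts in the Egr2fl/fl mice, and in the Egr2-deficient mice 18 counts, from 5 cells, and 28 counts (0.294, 0.157 to 0.564). Nr1d1 was below the 100 counts asked of a gene, at 0.271-fold (0.0868 to 0.849) over the 4 classes of the Egr2-deficient mice, where 12 of its 16 counts on ND came from 2 cells. In Cd209a+ dendritic cell-like cells of the Egr2fl/fl mice Dbp was lower on CDA-HFD, at 8.03 and 2.05 CPM, from 18 counts in 7 cells and 31 counts in 14 cells.

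Other glucocorticoid-induced genes were often higher on CDA-HFD. Of the 20 with enough counts 11 were past 2-fold higher and none lower in the Egr2fl/fl mice, and 11 higher and 1 lower in the Egr2-deficient mice, with median log2 ratios of 1.08 and 1.08. In the Egr2fl/fl mice they were led by Mt2, a metallothionein (1.04 and 9.08 CPM, 5.32-fold), the chemokine receptor Cxcr4 (103 and 365 CPM, 3.99-fold), the cell cycle inhibitor Cdkn1a (112 and 427 CPM, 3.78-fold), the transcription factor Klf9 (6.44 and 17.8 CPM, 3.13-fold), the NF-kappaB inhibitor Nfkbia (432 and 1354 CPM, 2.94-fold) and the decoy receptor Il1r2 (50.3 and 195 CPM, 2.68-fold). In the Egr2-deficient mice Errfi1 (4.03-fold), Cdkn1a (3.52-fold), Cxcr4 (3.44-fold), the phosphatase Dusp1 (3.41-fold) and Mt2 (3.06-fold) were highest, and Cd163, which is also a Kupffer cell marker, was lower at 16.6 and 4.44 CPM (0.239-fold). The ND level of Mt2 in the Egr2fl/fl mice came from few counts, so that its 5.32-fold depends on the 0.5 added. Several of these genes also respond to inflammatory signals. Of the 7 receptor and partner genes none was past 2-fold higher and 1 was lower in each genotype, Fkbp4 in the Egr2fl/fl (0.486-fold) and Hsd11b1 in the Egr2-deficient mice (0.427-fold), with median log2 ratios of -0.37 and -0.22.

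Of the 13 other clock genes with enough counts 4 were past 2-fold higher in the Egr2fl/fl and 5 in the Egr2-deficient mice, none was lower, and the median log2 ratios were 0.12 and 0.67. Bhlhe40, a repressor of Arntl and Clock targets, was at 53.4 and 192 CPM (5.02-fold) and at 71.0 and 153 CPM (3.0-fold). Nfil3, a repressor at D-boxes, was at 18.1 and 63.1 CPM (2.91-fold) and at 13.6 and 58.6 CPM (2.90-fold). Usp2 (7.46-fold and 3.01-fold) and Ciart (2.64-fold and 2.37-fold) were low, and Rora was past 2-fold in the Egr2-deficient mice (0.691 and 3.87 CPM, 3.94-fold).

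Immediate early genes, which external stimuli induce quickly, were higher together with Per1 and Fkbp5. Past 2-fold higher were 9 of 10 genes in the Egr2fl/fl and 7 of 10 in the Egr2-deficient mice, with median log2 ratios of 1.71 and 1.75. In the Egr2fl/fl mice Atf3 was at 163 and 1237 CPM (7.42-fold), Fosb at 31.6 and 248 CPM (7.81-fold) and Egr3 at 11.4 and 34.3 CPM (9.44-fold), and in the Egr2-deficient mice these were at 7.57-fold, 5.72-fold and 3.08-fold. Past 2-fold higher were also 3 of 7 heat shock genes in the Egr2fl/fl mice, with Hspa1a at 126 and 1125 CPM (8.63-fold) and a median log2 ratio of 0.97, and none in the Egr2-deficient mice, with a median of -0.12. The part of these stress transcripts in the levels of Per1 and Fkbp5 on CDA-HFD was not tested.

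**Figure D4:**
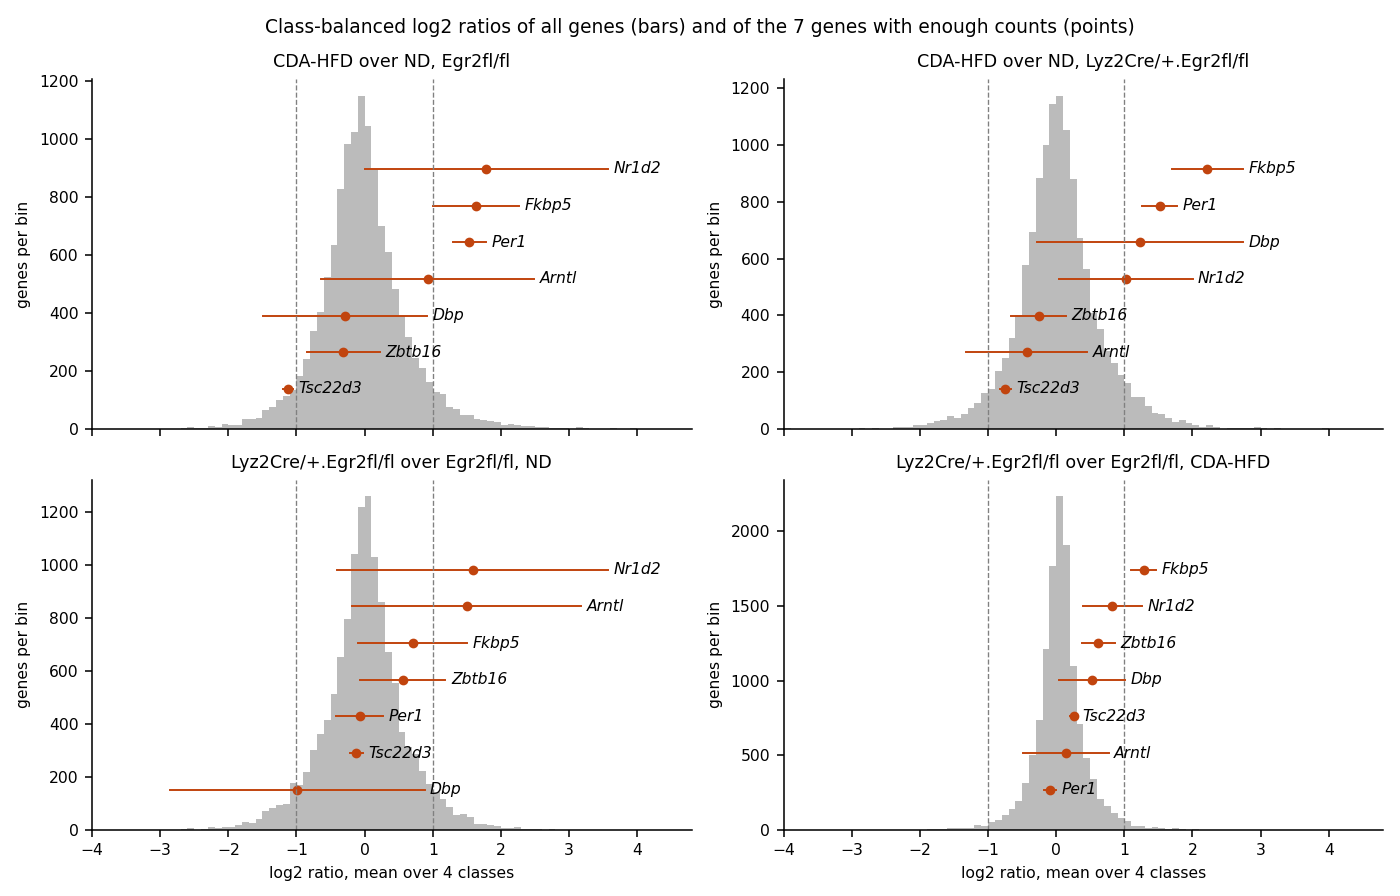
Log2 ratios averaged over 4 cell classes in the 4 comparisons, with grey bars for the number of genes per bin among 12734 genes, points with 95% counting intervals for the 7 members with enough counts, and dashed lines at 2-fold. Per1 and Fkbp5 lie beyond the right line in both comparisons of diet, and in the comparison of genotypes on CDA-HFD Fkbp5 lies beyond it while Per1 lies near 0.

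Kupffer cell-like cells allowed a comparison of the genotypes on ND, with 763 and 830 cells. Per1 was at 20.8 and 41.1 CPM in the Egr2fl/fl and Egr2-deficient mouse, a ratio of 1.98 (1.75 to 2.24), with a count in 25.4% and 37.5% of the cells. In cells thinned to 3000 counts the shares were 4.33% and 10.2%. Per2 was at 2.70 and 4.78 CPM (1.77, 1.24 to 2.55), from 28 and 43 cells, and Dbp at 3.34 and 4.73 CPM (1.42, 1.01 to 1.99), from 29 and 42 cells. The remaining clock genes had intervals that included 1. Per3 was at 1.43 and 1.93 CPM (1.35, 0.798 to 2.32), Nr1d1 at 1.11 and 0.645 CPM (0.580, 0.260 to 1.23), Nr1d2 at 7.58 and 7.2 CPM (0.950, 0.745 to 1.21) and Arntl at 12.7 and 13.1 CPM (1.03, 0.856 to 1.23).

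Of the glucocorticoid-induced genes, Fkbp5 was at 30.3 and 41.5 CPM in these cells (1.37, 1.23 to 1.53), whereas Tsc22d3 was at 266 and 273 CPM (1.03, 0.988 to 1.07). The ratios of Per1, Per2, Dbp and Fkbp5 were 1.99, 1.73, 1.46 and 1.37 in cluster 3 alone, without the smaller cluster 14, which was led by the hepatocyte transcripts Apoa2, Mup13, Mup15 and Mup14 next to Kupffer cell markers. None of the 7 members with at least 100 counts here was past 2-fold, beside 0.83% of genes higher and 0.529% lower. Of 18 other glucocorticoid-induced genes with enough counts 1 was past 2-fold higher, Ddit4, an inhibitor of mTORC1, at 5.19 and 11.4 CPM (2.20, 1.73 to 2.83), and none was lower. Dusp1, a phosphatase on the same list that was named after its value was seen, was just short of 2-fold lower, at 296 and 150 CPM (0.506, 0.484 to 0.530). None of the 9 other clock genes, 6 receptor and partner genes and 6 heat shock genes with enough counts was past 2-fold, with median log2 ratios of 0.12, -0.15 and 0.09. Of 10 immediate early genes 1 was past 2-fold lower and none higher, with log2 ratios of -1.35 to -0.12 and a median of -0.43, beside a median of 0.05 over all genes and 0.13 over the other glucocorticoid-induced genes. It was Egr3, at 4.03 and 1.56 CPM (0.387, 0.243 to 0.601).

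In the remaining classes of the ND-fed mice low counts limited the comparison of the genotypes for most members. Over the 4 classes Fkbp5 was at 1.63-fold (0.938 to 2.85), Per1 at 0.952-fold (0.749 to 1.21), Tsc22d3 at 0.918-fold (0.860 to 0.979) and Zbtb16 at 1.48-fold (0.959 to 2.28). By class, all 5 ratios of Fkbp5, Kupffer cell-like cells included, were above 1. In cluster 4 its interval excluded 1 as well (2.72, 1.13 to 7.51), from 7 and 23 counts. Zbtb16 had 2 ratios above and 3 below 1. Only in Cd209a+ dendritic cell-like cells did its interval exclude 1 (9.26, 2.81 to 48.0), from 3 and 24 counts. Past 2-fold higher were 2 of 7 members and none was lower, beside 4.94% and 5.39% of all genes. They were Nr1d2 at 3.0-fold (0.756 to 11.9) and Arntl at 2.83-fold (0.879 to 9.08), from 6 and 11 and from 11 and 22 counts. In at least 1 of the mice Nr1d2 had no count in 3 of the 4 classes and Arntl in 2, so that both averages depend on the 0.5 added. In the 3 classes where a ratio of Nr1d2 could be formed, Kupffer cell-like cells and cluster 4 among them, it was below 1 (0.200 to 0.950), with intervals that included 1. The 4 ratios of Arntl were above 1, from 1.03 to 8.69, and the interval excluded 1 in cluster 4 (8.69, 2.12 to 76.5), from 2 and 21 counts. In neutrophil-like cells Per1 was lower in the Egr2-deficient mouse, at 132 and 69.2 CPM (0.524, 0.362 to 0.757), opposite to the Kupffer cell-like cells. In Cd209a+ dendritic cell-like cells Per1 was higher in that mouse, at 38.4 and 53.7 CPM (1.40, 1.04 to 1.88). Of its 6 ratios on ND 4 were above 1 and 2 below. Among the lists, Usp2 (3.4-fold) was past 2-fold higher and Rora (0.288-fold) and Cry2 (0.498-fold) lower of 13 other clock genes, Cd163 (2.27-fold) higher and Errfi1 (0.464-fold) lower of 20 other glucocorticoid-induced genes, and Hspb1 (2.07-fold) higher of 7 heat shock genes, whereas no receptor or immediate early gene was. Among these only Cd163 had an interval that did not include 1 (1.41 to 3.66).

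Whether clock output and glucocorticoid targets shifted together depended on the pair of mice and on the gene. The log2 ratios of Per1, Per2, Per3, Dbp, Nr1d1 and Nr1d2 were averaged for each class, as were those of Fkbp5, Tsc22d3 and Zbtb16, with 0.5 added to each count. Between the genotypes both means were above 0 in 10 of 11 classes on CDA-HFD and 4 of 6 on ND, where both were below 0 in 1 more. Between the diets both were above 0 in 3 of 6 classes of the Egr2fl/fl mice, with both below 0 in 1, and above 0 in 2 of 5 of the Egr2-deficient mice. Across classes Pearson's r of both means was 0.26 (n = 11), 0.63 (n = 6), 0.26 (n = 6) and -0.35 (n = 5) in the same order. Members with 0 to 3 counts can set the size or the sign of such a mean. In Kupffer cell-like cells, for example, most of the glucocorticoid mean of 0.95 came from Zbtb16 with 0 and 2 counts. The ratios of Tsc22d3 and Fkbp5 there were 1.03 and 1.37. The classes also share mice and libraries, so these counts do not show that the genes shifted together. Among the well counted genes, Per1 and Fkbp5 were both higher on CDA-HFD, while Tsc22d3 was lower, and between the genotypes on CDA-HFD Fkbp5 was higher in most classes where Per1 was on either side of 1. Within single classes of a mouse, the counts per cell of Fkbp5 and Tsc22d3 in thinned cells had Spearman's rho between -0.06 and 0.11 in 14 classes of a mouse where both genes were seen in at least 20 cells. For Fkbp5 and Per1 it lay between -0.04 and 0.12 in 14, and for Per1 and Tsc22d3 between -0.09 and 0.11 in 21. At such sparse counts these values do not show whether the genes vary together from cell to cell.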

How the data were processed

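Sorted liver cells of 4 mice were pooled and sequenced as 1 mRNA and 1 hashtag library. Per the paper's methods, the authors trimmed and mapped the reads to the GRCm38 transcriptome, demultiplexed the barcodes by hashtag, and analysed them in Seurat 4.1.1 with R 4.2.1. They deposited a matrix of raw counts of 25909 genes in 16786 barcodes and a table of hashtag counts, both without normalization. The 1392 barcodes (8.29%) that the authors named doublets were left out, 7 further hashtag columns, of no mouse here, were set aside, and 0 barcodes were shared between mice. Doublets within a mouse were not removed. For 34 genes low values had been set to 0, none of them among the 10 genes described. The lowest total of a cell was 3115 counts.

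Cells with at most 25% mitochondrial counts were clustered in Seurat 5.3.0 (R 4.3.3) with the study's settings, 57 PCs and resolution 1.0, on 5049 variable genes without the 10 members. A cluster was named from marker lists where 3 or more markers were detected in 20% or more of the cluster and had 2 or more times the CPM of all other cells, and 2 of them were among its 10 leading genes or most of the list was raised. Counts were summed per mouse and class in Python 3.11.15 (pandas 2.3.3, scipy 1.17.1, numpy 2.4.6). CPM have exact Poisson, shares Clopper-Pearson and ratios binomial-split 95% intervals. Where no cell had a count, the limit printed for the share is instead 3 over the number of cells, which is tighter than the Clopper-Pearson bound. No ratio was formed where both sums were at most 3 counts. With 1 mouse per group no test was run and no p-value is given. An additive fit of diet and genotype over the 4 mice, which would assume no interaction, was not run. Averages over classes used genes with at least 100 counts, and their intervals come from the delta method on the counts. They were tried only on simulated Poisson counts, which the method assumes. Such counts lack the several counts per positive cell and the differences between mice of these data. Promoters were read from RefSeq. Figures were drawn with matplotlib 3.10.9.

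The members and gene lists were chosen with earlier results of these data known. Named are the 10 members, the genes whose pattern was most like a member, and of each list up to 6 genes past 2-fold in a comparison, by size. The alternatives were 15 changes of filter, scaling (edgeR 4.0.16), clustering, class or added count, of which 3 were added after the data had been seen.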

Additional observations from a re-analysis of the deposited data

Results flagged for a closer look

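Averaged over 4 cell classes, Tsc22d3 was at 0.918-fold (0.860 to 0.979) in the Egr2-deficient over the Egr2fl/fl mouse on ND and at 1.19-fold (1.15 to 1.24) on CDA-HFD, a difference of 0.378 on the log2 scale. The direction on ND was not stable. Of 6 classes there 3 had a ratio above 1 and 3 below, with the interval above 1 in cluster 4 (1.21) and below 1 in Ly6Clo monocyte-like cells (0.750). Over all cells the ratio on ND was 1.12 (1.08 to 1.15), and the log2 ratio ran from -0.18 to 0.16 over the alternatives. On CDA-HFD all 11 ratios were above 1. With 1 mouse per group this difference was not tested.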

How the results depend on the processing

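No paired or blocked fit was run, since the mice carry no replicate numbers that pair them and each group is 1 mouse. The number of members past 2-fold moved in 28 cases and stayed in 92. Small changes, such as 3 becoming 2, are counted among those that stayed. Between the diets in the Egr2fl/fl mice it was 3 higher and 1 lower, and became 1 higher with all cells pooled or 5 counts added, 0 lower with TMM scaling, 3 lower with a limit of 90% own hashtag and 2 lower with 5 counts added. In the Egr2-deficient mice, 4 higher became 2 with all cells pooled, at least 90% own hashtag, 5 counts added, or clusters 8 and 5 in place of their classes, and 0 lower became 2 with all cells pooled and 1 at resolution 0.5, with at least 100 cells per class or 5 counts added. Between the genotypes on ND, 2 higher became 1 with all cells pooled, at least 90% own hashtag or without the 5% of cells of highest counts, and 0 with classes by marker level, 5 counts added or clusters 8 and 5. There, 0 lower became 1 with mean CPM per cell, no mitochondrial limit, resolution 2.0 or without neutrophil-like cells. On CDA-HFD, 1 higher became 2 with all cells pooled, at least 90% own hashtag, without the 5% of highest counts or clusters 8 and 5, and 0 with at least 100 cells per class.

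Of the values other than the number of members past 2-fold, 376 stayed within the interval of the main value, 64 moved and 6 reversed. Most of these values were log2 ratios of single genes under these alternatives. The rest were shares of all genes past 2-fold under other count limits, and ratios of shares of cells after thinning. Reversed were Nr1d2 between the diets in the Egr2fl/fl mice (-0.24 with all cells pooled, -0.57 with 5 counts added) and in the Egr2-deficient mice (-0.26 with 5 counts added), Fkbp5 in the Egr2fl/fl mice (-0.32 with all cells pooled), Dbp in the Egr2-deficient mice (-0.62 with 5 counts added) and Arntl between the genotypes on ND (-0.43 at 90% own hashtag). A log2 ratio counted as reversed only if its main value was at or past 2-fold. Smaller log2 ratios that changed sign counted as moved or stayed. Examples were Arntl between the diets in the Egr2fl/fl mice (main 0.93, lowest -0.97) and Dbp between the genotypes on ND (main -0.99, highest 0.33). By construction, adding 5 counts raises the CPM of the smaller ND sums, and pooling includes Kupffer cell-like cells. The cause of the other changes was not tested. Outside the Kupffer cell-like cells, classes of the ND-fed mice had under 200 cells, which limits the values for Nr1d1, Nr1d2, Per2, Per3, Dbp and Arntl in comparisons that use them.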

Other observations

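Outside the classes compared, the 15 Kupffer cell-like cells of the CDA-HFD-fed Egr2-deficient mouse had 44 counts of Fkbp5 in 9 cells, or 158 CPM, against 30.3 and 41.5 CPM in the Kupffer cell-like cells of the ND-fed mice. Of these 15 cells 11 were in cluster 3. The 4 such cells of the CDA-HFD-fed Egr2fl/fl mouse, all in cluster 14, had no Fkbp5 count, which allows up to 167 CPM (exact 95% interval), so that no difference was detectable. Endothelial cell-like cells, with 21, 40, 17 and 57 cells in the ND-fed Egr2fl/fl, ND-fed Egr2-deficient, CDA-HFD-fed Egr2fl/fl and CDA-HFD-fed Egr2-deficient mouse, had Fkbp5 at 48.1, 51.8, 29.7 and 50.7 CPM. Arntl in these cells was at 18.5, 45.9, 11.9 and 20.9 CPM, from 5, 23, 2 and 14 counts. In the T or NK cell-like cells Zbtb16, which marks innate-like T cells, was at 19.3 and 25.1 CPM in the 71 and 47 cells of the ND-fed mice, while the 38 and 40 cells of the CDA-HFD-fed mice had 0 and 3 counts.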
